A study of Mus musculus with 6 samples.

Results

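The enzymes that make and use glutathione, and those that remove superoxide and peroxides, were examined in subcutaneous white adipose tissue (scWAT). They were matched by gene symbol: the cytosolic and microsomal glutathione transferases, the glutathione peroxidases, the peroxiredoxins, the superoxide dismutases, catalase, the enzymes of glutathione synthesis and reduction, thioredoxins, thioredoxin reductases, *Nqo1* and *Hmox1*. The rule matched 53 of the 55401 genes counted. RNA sequencing covered 3 YT-FF mice, which carried *Yap* fl/fl and *Taz* fl/fl alleles without Cre and are called WT in the sample labels, and 3 YT-AKO mice, *Yapfl/fl/Tazfl/fl;AdipoqCre*. All 6 were males aged 8 weeks and kept at 22 °C. Both groups therefore carried the floxed alleles, and Cre came from the *Adipoq* promoter, so deletion is aimed at mature adipocytes and not at the other cells of the depot. Each library is 1 mouse.

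Superoxide dismutases turn superoxide into hydrogen peroxide. Catalase breaks hydrogen peroxide down directly, glutathione peroxidases do so with electrons from glutathione, and peroxiredoxins with electrons from thioredoxin, and both carriers are recharged from NADPH by their reductases. Glutathione transferases join glutathione to lipid aldehydes and foreign compounds. Mitochondria are a main source of superoxide, and thermogenic adipocytes are rich in them.

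The libraries held 17740987 to 21838493 counted fragments. Levels are given in CPM, which are counts scaled to a common library size with the trimmed mean of M-values (TMM), whose factors ran from 1.07 to 1.16 in YT-FF and from 0.777 to 0.955 in YT-AKO, lowest in YT-AKO 2. *Yap1* had 69.1, 57.1 and 66.7 CPM in YT-FF 1, 2 and 3 and 37.7, 29.0 and 31.3 CPM in YT-AKO 1, 2 and 3 (log2 fold change -0.98, standard error 0.17, edgeR, Benjamini-Hochberg adjusted p = 0.0179). *Wwtr1*, which encodes TAZ, had 77.5, 76.0 and 98.8 CPM and 175, 133 and 161 CPM (log2 fold change 0.89, standard error 0.18, edgeR, Benjamini-Hochberg adjusted p = 0.0220). Its summed counts thus rose where the label implies a loss, and the second group is therefore called the libraries labelled YT-AKO. By immunoblot, the paper reported clearly less YAP and TAZ protein in scWAT of YT-AKO mice, which RNA counts do not measure. Counts summed over all exons do not show the loss of single exons. Counts also differed with gene length: Spearman's rho of log2 fold change with summed exon length was -0.376 across the 16807 tested genes, which do not count as replicates. The median exon length was 3888 bases over all tested genes and 2018 over the tested antioxidant genes.

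Of the 53 genes, 46 had enough counts to be tested, and 24 of these (52.2%) rose in the libraries labelled YT-AKO at an adjusted p under 0.05 (edgeR's quasi-likelihood test, Benjamini-Hochberg adjustment over all tested genes). Over all 16807 tested genes the same test called 12.6% higher and 9.01% lower. None of the 46 was called lower by edgeR; 1 was lower at an unadjusted p under 0.05, and DESeq2 called 27 higher and 1 lower, against 15.1% and 11.8% of the 18874 genes it tested. The log2 fold changes of the 24 ran from 0.73 to 2.13, or from 1.66- to 4.38-fold. The median over the 46 was 0.852, beside -0.0205 over all tested genes, and 40 of 46 (87%) had a positive log2 fold change, beside 49% of all tested genes. For 31 of 46 genes (67.4%) the libraries labelled YT-AKO were all higher than those of YT-FF, and for 1 (2.17%) all lower, beside 25.7% and 25.8% of all tested genes. Together the 53 genes took 0.682%, 0.669% and 0.754% of all counts in YT-FF 1, 2 and 3 and 1%, 1.32% and 1.11% in the libraries labelled YT-AKO 1, 2 and 3. In bulk tissue, more cells of a type and more RNA per cell cannot be told apart.

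These calls depended on the scaling and on single libraries. With scaling by library totals alone, which moved the median of all tested genes to -0.342, 15 of the 24 kept their call (lost were *Gpx3*, *Gpx7*, *Gpx8*, *Gstm1*, *Gsto1*, *Gstp2*, *Mgst1*, *Prdx3* and *Sod3*), against 6.77% of all tested genes called higher and 16.8% lower. With a correction for gene length in each library, 12 of the 24 did (*Gpx1*, *Gsta3*, *Gsta4*, *Gstm5*, *Gstp1*, *Prdx1*, *Prdx2*, *Sod1*, *Sod2*, *Sod3*, *Txn2* and *Txnrd2*), the correction calling 8.31% of all tested genes higher and 5.33% lower. No call was left without YT-FF 1 or without YT-FF 2, where edgeR called 0 genes higher anywhere and 27 and 26 antioxidant genes had an unadjusted p under 0.05. Without YT-FF 3, 9 genes were called, against 4.03% of all tested genes called higher and 3.02% lower. Without YT-AKO 2, the library in which 19 of the 24 genes were highest, all 24 kept their call and 26 genes in all were called higher and 1 lower, against 16.9% and 14% of all tested genes. *Gpx8*, *Gsta3* and *Gstp2* lost their call without YT-AKO 1, and *Gpx3*, *Gpx7*, *Gstm1* and *Sod3* without YT-AKO 3.

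**Figure D1:**
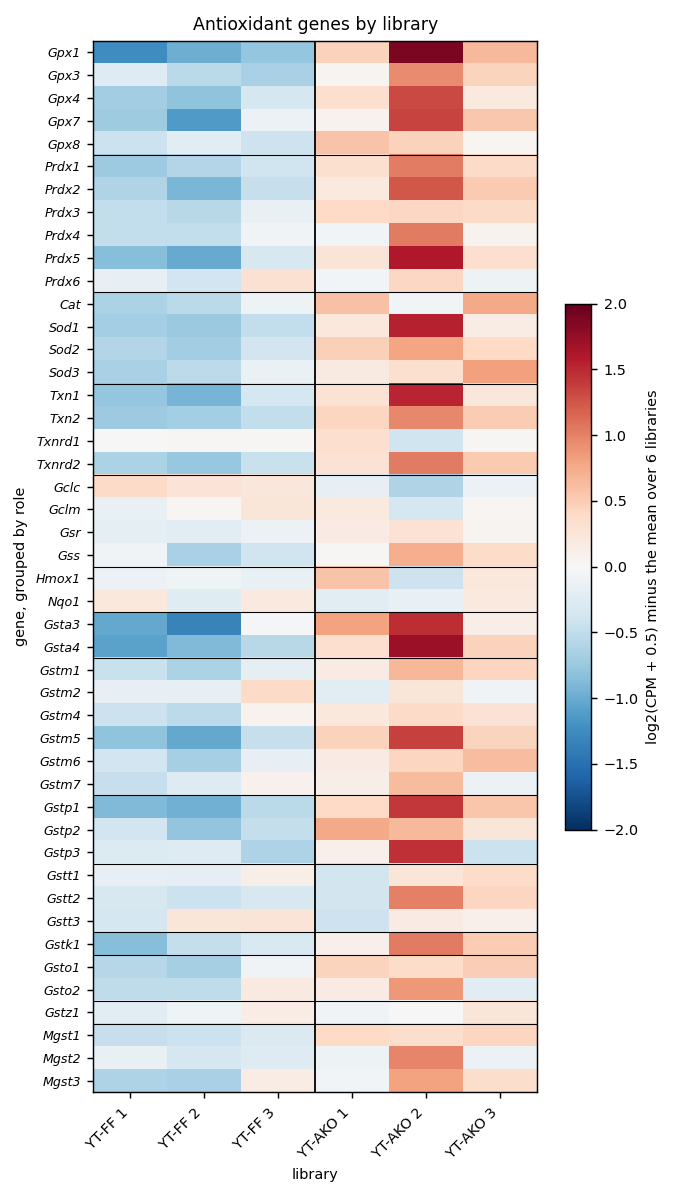
Heat map of the 46 tested antioxidant genes (rows, grouped by role) in 6 libraries (columns); colour is log2(CPM + 0.5) minus the gene's mean over the libraries. Most rows are blue in YT-FF and red in YT-AKO, with the deepest red in YT-AKO 2, where the median deviation of the 24 called genes was 1.04, against 0.332 in YT-AKO 1 and 0.442 in YT-AKO 3.

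Promoter sequence is shown for a few members because many of them are textbook targets of the transcription factor NRF2, which binds the antioxidant response element. The letters TGACNNNGC, a short form of that element, were searched on both strands in the 250 bases before each RefSeq transcription start (GRCm38.p6). Of the 53 antioxidant genes, 46 had an entry in RefSeq's promoter table (not the same 46 as were tested), and the letters occurred in 8 of these (17.4%) and in 3112 of the 27025 genes of the table (11.5%), a gene counting once if any of its promoter entries held them. The 8 were *Gsta3*, *Gstm5*, *Mgst1*, *Prdx1* and *Sod1*, which rose, and *Gclm*, *Gstm7* and *Txnrd1*, which were not called. That is 5 of 22 called genes (22.7%) and 3 of 17 tested genes not called (17.6%). No entry was found for *Gclc*, *Gsr*, *Gsta4*, *Gstt2*, *Hmox1*, *Prdx6* and *Sod3*. A match is a description of these letters and not a binding site, and sequence outside the 250 bases was not searched. The windows below, each 81 bases from RefSeq, are printed 5′ to 3′ along the gene with the match in capitals.
*Prdx1* (chr4:116685430-116685510, plus strand): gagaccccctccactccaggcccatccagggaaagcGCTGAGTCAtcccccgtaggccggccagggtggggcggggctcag
*Sod1* (chr16:90220670-90220750, plus strand): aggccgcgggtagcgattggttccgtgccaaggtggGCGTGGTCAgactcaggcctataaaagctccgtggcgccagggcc
*Gsta3* (chr1:21240428-21240508, plus strand): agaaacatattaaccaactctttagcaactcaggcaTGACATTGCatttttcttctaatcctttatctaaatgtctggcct
*Gclm* (chr3:122245387-122245467, plus strand): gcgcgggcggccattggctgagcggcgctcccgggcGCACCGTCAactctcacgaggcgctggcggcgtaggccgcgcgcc
The first 3 belong to genes that rose and the last to a gene that was not called. In *Gsta3* the match reads TGACATTGC along the gene, and in the other 3 it lies on the opposite strand.

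The superoxide dismutases, which head the chain, all rose. *Sod2*, the mitochondrial manganese enzyme (ENSMUSG00000006818, chromosome 17, 13006846 to 13040063 of mm10), had 139, 128 and 159.8 CPM in YT-FF 1, 2 and 3 and 290.1, 359 and 276 CPM in the libraries labelled YT-AKO 1, 2 and 3 (log2 fold change 1.12, standard error 0.18, edgeR, Benjamini-Hochberg adjusted p = 0.0177). The groups did not overlap, and YT-AKO 2 was the highest by a small margin. *Sod1*, the cytosolic copper-zinc enzyme (ENSMUSG00000022982, chromosome 16, 90220754 to 90226329), had 308, 298 and 354 CPM and 575, 1450.0 and 550.4 CPM (log2 fold change 1.42, standard error 0.38, edgeR, Benjamini-Hochberg adjusted p = 0.0385). Its value in YT-AKO 2 was the highest by far, and its log2 fold change was 0.81 without that library, where the call was kept. *Sod3*, the secreted form (chromosome 5, 52363791 to 52371418), had 240.2, 262 and 345 CPM and 428, 471 and 671 CPM (log2 fold change 0.89, standard error 0.24, edgeR, Benjamini-Hochberg adjusted p = 0.0385), and was highest in YT-AKO 3. Length correction moved the log2 fold change of *Sod2* up to 1.48 and left *Sod1* at 1.39 and *Sod3* at 0.82, all still called. Of the distinct 50-base words of *Sod2* exons, 21.04% occur in other genes as well, so part of its fragments may have been left out of the counts.

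Catalase, the peroxisomal enzyme, had 491, 525 and 709 CPM in YT-FF and 1146, 733 and 1290.2 CPM in the libraries labelled YT-AKO. The groups did not overlap, but the edgeR test did not call *Cat* (log2 fold change 0.88, standard error 0.27, edgeR, Benjamini-Hochberg adjusted p = 0.0517). YT-AKO 2, the highest library for most members, was here the lowest of its group. *Cat* had a log2 fold change of 1.08 without YT-AKO 2 and was then called, and DESeq2 called it with all libraries (Benjamini-Hochberg adjusted p = 0.00960).

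The glutathione peroxidases gave the largest change of the whole set, and all 5 tested members rose. *Gpx1*, the widely expressed cytosolic and mitochondrial enzyme (ENSMUSG00000063856, chromosome 9, 108338903 to 108340343), had 317, 379.8 and 440.2 CPM in YT-FF 1, 2 and 3 and 1027, 2773 and 1176 CPM in the libraries labelled YT-AKO 1, 2 and 3, a 4.38-fold difference (log2 fold change 2.13, standard error 0.40, edgeR, Benjamini-Hochberg adjusted p = 0.0199). YT-AKO 1 and 3 lay close together, well above the highest YT-FF library, and YT-AKO 2 far above both, so that without YT-AKO 2 the log2 fold change was 1.54. *Gpx4*, which reduces lipid peroxides in membranes (ENSMUSG00000075706, chromosome 10, 80047166 to 80056439), had 473, 439.7 and 598 CPM and 960.0, 1912 and 874 CPM (log2 fold change 1.31, standard error 0.33, edgeR, Benjamini-Hochberg adjusted p = 0.0330). It shares 34.74% of its 50-base words with the copy *Gpx4-ps2*, and its log2 fold change was 0.86 without YT-AKO 2. *Gpx3*, the secreted plasma form (chromosome 11, 54902453 to 54910377), had 1019.7, 834 and 774 CPM and 1267, 2338 and 1659 CPM (log2 fold change 1.002, standard error 0.27, edgeR, Benjamini-Hochberg adjusted p = 0.0379). *Gpx7* and *Gpx8*, which act in the endoplasmic reticulum, had log2 fold changes of 1.37 and 0.73 (edgeR, Benjamini-Hochberg adjusted p = 0.0421 and 0.0329) at 12.6, 9.32 and 19.3 against 22.0, 54.0 and 30.6 CPM for *Gpx7* and 74.4, 86.4 and 75.0 against 150.3, 138 and 103 CPM for *Gpx8*. Of these 5 calls, only that of *Gpx1* was left after length correction (log2 fold change 1.59), and only those of *Gpx1* and *Gpx4* with library totals alone. The other 3 peroxidase genes were not tested: *Gpx5* and *Gpx6* had 0 counts in every library, and *Gpx2* 3 counts in YT-FF 2 alone.

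Of 6 peroxiredoxins, 4 rose. *Prdx1*, the main cytosolic form (ENSMUSG00000028691, chromosome 4, 116685544 to 116700822, promoter window above), had 239, 263 and 301 CPM in YT-FF 1, 2 and 3 and 494, 806 and 515 CPM in the libraries labelled YT-AKO 1, 2 and 3 (log2 fold change 1.18, standard error 0.24, edgeR, Benjamini-Hochberg adjusted p = 0.0217). *Prdx2*, also cytosolic, had 109, 87.4 and 119 CPM and 189, 392 and 238 CPM (log2 fold change 1.38, standard error 0.29, edgeR, Benjamini-Hochberg adjusted p = 0.0230). The groups of both genes stood apart, and both calls were kept under length correction and under library totals alone. *Prdx3*, which resides in mitochondria, had 130.3, 124.8 and 166 CPM and 243, 246 and 240.2 CPM (log2 fold change 0.79, standard error 0.17, edgeR, Benjamini-Hochberg adjusted p = 0.0239). Its 3 values in the second group were nearly equal, without the excess in YT-AKO 2, yet its log2 fold change fell to 0.33 after length correction and the call was lost. *Prdx5*, found in mitochondria and peroxisomes, had 108, 96.4 and 156 CPM and 233, 593 and 246 CPM (log2 fold change 1.57, standard error 0.39, edgeR, Benjamini-Hochberg adjusted p = 0.0326), falling to a log2 fold change of 0.995 without YT-AKO 2. Exons of *Prdx5* are overlapped over 19.12% of their bases by *Trmt112* on the opposite strand, and fragments there were not counted for either gene. *Prdx4* of the endoplasmic reticulum and the 1-cysteine enzyme *Prdx6* were not called (log2 fold change 0.79 and 0.16, standard error 0.31 and 0.24). *Prdx6*, at 212, 181 and 292 CPM against 228, 316 and 221 CPM, had overlapping groups.

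**Figure D2:**
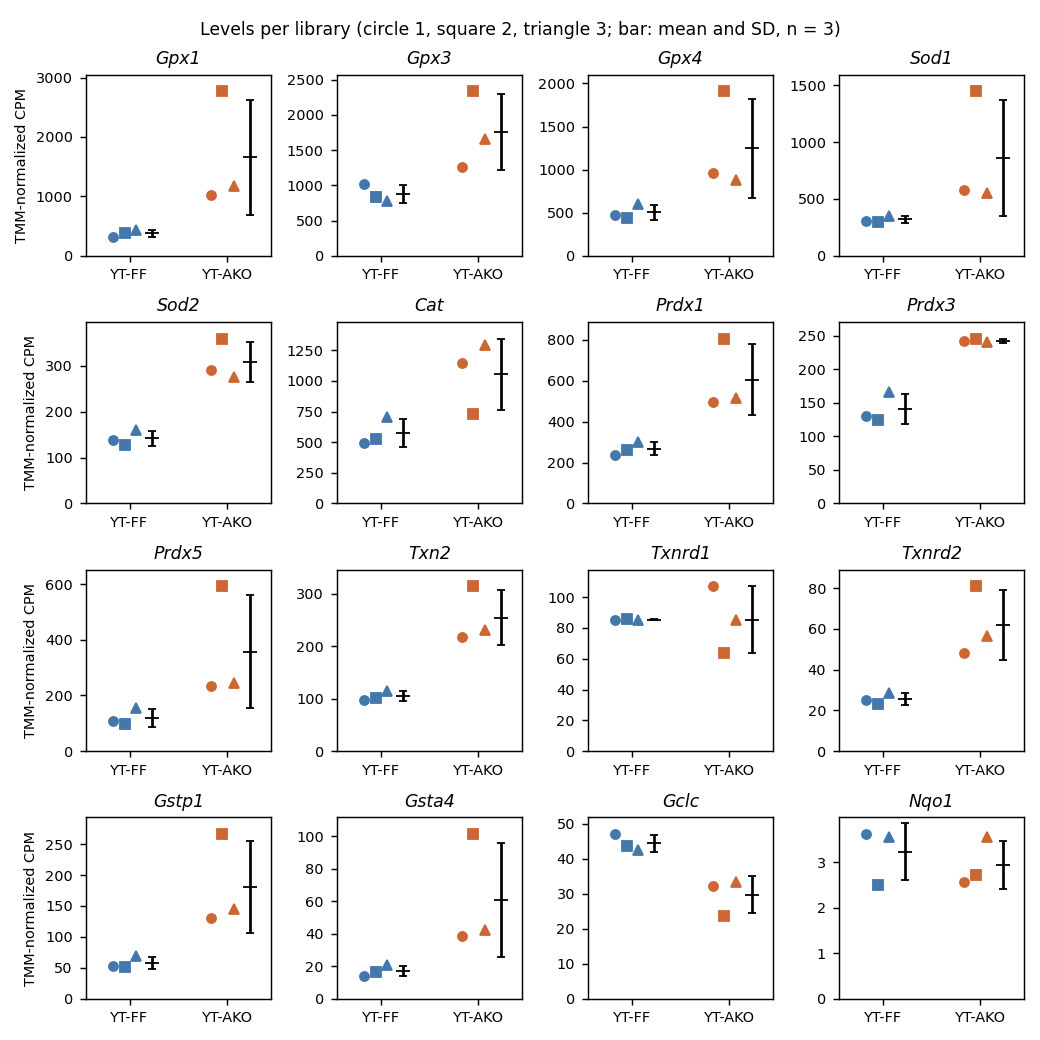
TMM-normalized CPM (vertical axes, linear and starting at 0) of 16 antioxidant genes in each YT-FF library (blue) and each library labelled YT-AKO (orange), with circles, squares and triangles for libraries 1, 2 and 3 and bars for the mean and SD of 3 libraries. *Gpx1*, *Sod2*, *Prdx3*, *Txn2* and *Txnrd2* do not overlap between the groups, *Txnrd1* and *Nqo1* do, *Gclc* is lower in all 3 orange points, and the square of YT-AKO 2 is the highest point for *Gpx1*, *Gpx4*, *Sod1*, *Prdx5* and *Gsta4* but not for *Cat* or *Txnrd1*.

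In the thioredoxin system, 3 of 4 genes rose. *Txn2*, the mitochondrial thioredoxin (ENSMUSG00000005354, chromosome 15, 77915047 to 77929006), had 97.1, 101 and 115 CPM in YT-FF 1, 2 and 3 and 218, 314 and 231 CPM in the libraries labelled YT-AKO 1, 2 and 3, with the smallest adjusted p of all members (log2 fold change 1.28, standard error 0.19, edgeR, Benjamini-Hochberg adjusted p = 0.0171). *Txnrd2*, the mitochondrial reductase (ENSMUSG00000075704, chromosome 16, 18426384 to 18479073), had 25.02, 22.9 and 28.5 CPM and 48.1, 80.9 and 56.4 CPM (log2 fold change 1.28, standard error 0.22, edgeR, Benjamini-Hochberg adjusted p = 0.0181). Both kept their calls under length correction, at 1.27 and 1.29, and under library totals alone. *Txn1*, the cytosolic thioredoxin, had 99.9, 89.7 and 133 CPM and 209, 488 and 200.3 CPM (log2 fold change 1.48, standard error 0.37, edgeR, Benjamini-Hochberg adjusted p = 0.0324), a log2 fold change that was 0.93 without YT-AKO 2. *Txnrd1*, the cytosolic reductase (ENSMUSG00000020250, chromosome 10, 82833951 to 82897712), had 84.9, 86.0 and 85.4 CPM and 107, 63.8 and 85.5 CPM (log2 fold change -0.00, standard error 0.20, edgeR, Benjamini-Hochberg adjusted p = 0.999). The 3 YT-FF libraries were almost level for *Txnrd1*, and the other 3 lay above, below and within their range, with YT-AKO 2 the lowest. TPM are counts per exon length scaled to a fixed sum. Each gene is divided by the same length in every library, so the length trend between the groups stays in ratios of TPM. The TPM ratio of *Txnrd2* to *Txnrd1* was 0.475, 0.429 and 0.538 in YT-FF and 0.724, 2.04 and 1.06 in the libraries labelled YT-AKO (two-sided exact permutation test, p = 0.1, the smallest that 3 against 3 libraries allow). This pair was chosen after its values were seen.

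None of the 4 genes for making and recharging glutathione was called by edgeR in either direction, with 2 higher and 1 lower at an unadjusted p under 0.05 and with DESeq2 calling 1 higher and 1 lower. *Gclc*, the catalytic subunit of the rate-limiting glutamate-cysteine ligase (ENSMUSG00000032350, chromosome 9, 77754535 to 77794485), had 47.1, 43.6 and 42.6 CPM in YT-FF 1, 2 and 3 and 32.2, 23.7 and 33.3 CPM in the libraries labelled YT-AKO 1, 2 and 3. It was the 1 tested member for which all 3 libraries labelled YT-AKO lay below all YT-FF libraries, with an adjusted p just over the threshold (log2 fold change -0.58, standard error 0.17, edgeR, Benjamini-Hochberg adjusted p = 0.0504). DESeq2 gave *Gclc* an adjusted p of 0.0354 (Benjamini-Hochberg), and edgeR called it lower under length correction (log2 fold change -0.65), under library totals alone (-0.89) and without YT-AKO 2 (-0.44). *Gclm*, its modifier subunit, had 42.4, 48.3 and 55.9 CPM and 53.7, 36.6 and 48.2 CPM, with overlapping groups (log2 fold change -0.08, standard error 0.19). The TPM ratio of *Gclc* to *Gclm* was 1.86, 1.51 and 1.27 in YT-FF and 1, 1.08 and 1.16 in the libraries labelled YT-AKO (two-sided exact permutation test, p = 0.1, the smallest possible), a pair also chosen after its values were seen. *Gss*, glutathione synthetase, which completes the molecule, had 23.1, 15.3 and 18.3 CPM and 24.8, 40.5 and 31.6 CPM without overlap and was not called (log2 fold change 0.77, standard error 0.24, edgeR, Benjamini-Hochberg adjusted p = 0.0535), and 15.44% of its exon bases are overlapped by *Acss2* on the opposite strand. *Gsr*, glutathione reductase and the most abundant of the 4 in TPM, had 43.0, 42.1 and 45.4 CPM and 54.9, 60.3 and 51.2 CPM (log2 fold change 0.35, standard error 0.14, edgeR, Benjamini-Hochberg adjusted p = 0.104). Its groups did not overlap, and the difference was small.

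*Nqo1*, a quinone reductase, and *Hmox1*, heme oxygenase, are 2 widely used readouts of NRF2 activity, and edgeR called neither, also at an unadjusted p under 0.05, nor did DESeq2. Many other members are textbook NRF2 targets as well, some of which rose, and NRF2 activity was not tested. *Nqo1* had 3.62, 2.505 and 3.55 CPM in YT-FF and 2.56, 2.71 and 3.55 CPM in the libraries labelled YT-AKO (log2 fold change -0.13, standard error 0.31, edgeR, Benjamini-Hochberg adjusted p = 0.764). *Hmox1* had 42.2, 43.2 and 41.6 CPM and 68.6, 34.2 and 53.1 CPM (log2 fold change 0.30, standard error 0.24, edgeR, Benjamini-Hochberg adjusted p = 0.385), and its lowest library of all 6 was YT-AKO 2. *Hmox1* had a log2 fold change of 0.52 without YT-AKO 2, where edgeR called it higher, while length correction turned it to -0.10.

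Among the glutathione transferases, 8 of the 18 tested cytosolic and kappa genes and 1 of 3 microsomal genes rose. In the alpha class, which acts on lipid peroxidation products, both tested genes rose. *Gsta4*, selective for 4-hydroxynonenal (ENSMUSG00000032348, chromosome 9, 78182774 to 78209349), had 14.2, 16.3 and 20.6 CPM in YT-FF 1, 2 and 3 and 38.7, 101 and 42.2 CPM in the libraries labelled YT-AKO 1, 2 and 3 (log2 fold change 1.83, standard error 0.39, edgeR, Benjamini-Hochberg adjusted p = 0.0232), and a log2 fold change of 1.25 without YT-AKO 2. *Gsta3* (chromosome 1, 21240589 to 21265661, promoter window above) had 35.97, 29.0 and 72.0 CPM and 129, 207 and 80.9 CPM (log2 fold change 1.61, standard error 0.43, edgeR, Benjamini-Hochberg adjusted p = 0.0383). YT-FF 3 came close to YT-AKO 3 for *Gsta3* but did not reach it. *Gsta1* had 0 counts in every library, and *Gsta2* at most 3. Of their exon words 90.5% and 49.79% recur in each other or in further copies, so fragments from either could be lost.

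The mu class lies in 1 cluster on chromosome 3, and 2 of its 6 tested genes rose. *Gstm5* (ENSMUSG00000004032, chromosome 3, 107895821 to 107898686) had 19.3, 16.5 and 24.6 CPM in YT-FF and 46.7, 88.1 and 46.6 CPM in the libraries labelled YT-AKO (log2 fold change 1.59, standard error 0.29, edgeR, Benjamini-Hochberg adjusted p = 0.0194), with 13.93% of its exon bases overlapped by *4933431E20Rik* on the opposite strand. *Gstm1* (chromosome 3, 108012255 to 108017973), the most abundant of the class in TPM, had 184, 163 and 222 CPM and 282, 401 and 339 CPM (log2 fold change 0.85, standard error 0.20, edgeR, Benjamini-Hochberg adjusted p = 0.0295), and shares 18.88% of its exon words with other genes. *Gstm2*, the neighbouring member, had 55.5, 55.1 and 81.05 CPM and 52.8, 73.7 and 59.0 CPM with overlapping groups (log2 fold change -0.05, standard error 0.21, edgeR, Benjamini-Hochberg adjusted p = 0.885). *Gstm4*, *Gstm6* and *Gstm7* were not called, at log2 fold changes of 0.58, 0.91 and 0.49, and *Gstm3* had 1 count in all. The difference between *Gstm5* and *Gstm2* was not tested.

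In the pi class on chromosome 19, *Gstp1*, a major detoxifying transferase (ENSMUSG00000060803, chromosome 19, 4035407 to 4037985), had 53.7, 50.8 and 68.3 CPM in YT-FF and 131, 266 and 145 CPM in the libraries labelled YT-AKO (log2 fold change 1.65, standard error 0.29, edgeR, Benjamini-Hochberg adjusted p = 0.0185). Its neighbour *Gstp2* had 1.66, 1.14 and 1.54 CPM and 4.30, 3.95 and 2.84 CPM (log2 fold change 1.35, standard error 0.33, edgeR, Benjamini-Hochberg adjusted p = 0.0318). The values of the 2 genes are uncertain, since 33.74% of the exon words of *Gstp1* and 54.32% of those of *Gstp2* recur in the other or in a pseudogene. *Gstp3* was high in YT-AKO 2 alone, at 6.61, 6.64 and 5.10 CPM in YT-FF and 8.66, 23.1 and 5.85 CPM in the libraries labelled YT-AKO, and was not called (log2 fold change 1.03, standard error 0.48, edgeR, Benjamini-Hochberg adjusted p = 0.144).

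The remaining classes gave fewer calls. *Gstk1*, the kappa enzyme of mitochondria and peroxisomes, had 33.2, 43.2 and 49.2 CPM and 64.8, 124.7 and 86.1 CPM (log2 fold change 1.13, standard error 0.27, edgeR, Benjamini-Hochberg adjusted p = 0.0283). *Gsto1* of the omega class had 48.6, 45.6 and 69.4 CPM and 99.6, 93.9 and 103 CPM (log2 fold change 0.86, standard error 0.19, edgeR, Benjamini-Hochberg adjusted p = 0.0262), at near-equal values in the 3 libraries labelled YT-AKO. *Mgst1*, the most abundant transferase in TPM and a protein of microsomal and outer mitochondrial membranes (ENSMUSG00000008540, chromosome 6, 138140316 to 138156755), had 436, 446 and 496 CPM and 797, 766 and 816 CPM (log2 fold change 0.79, standard error 0.17, edgeR, Benjamini-Hochberg adjusted p = 0.0233). Its replicates were tight in both groups, and it lost its call under length correction (0.41) and under library totals alone (0.47), as did *Gsto1*. *Gstz1*, an enzyme of tyrosine breakdown, was abundant, with overlapping groups at 406, 445 and 524 CPM and 446, 466 and 555 CPM (log2 fold change 0.09, standard error 0.19, edgeR, Benjamini-Hochberg adjusted p = 0.724). None of the 3 tested theta genes was called by edgeR or DESeq2, with 1 higher at an unadjusted p under 0.05. *Gstt1*, the most abundant of them in TPM, had 64.5, 63.3 and 78.9 CPM and 56.6, 86.5 and 94.0 CPM (log2 fold change 0.20, standard error 0.22, edgeR, Benjamini-Hochberg adjusted p = 0.519). *Gsto2*, *Mgst2* and *Mgst3* had log2 fold changes of 0.65, 0.61 and 0.73 and were not called. *Gstt4* had 3 to 16 counts per library and was not tested.

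**Figure D3:**
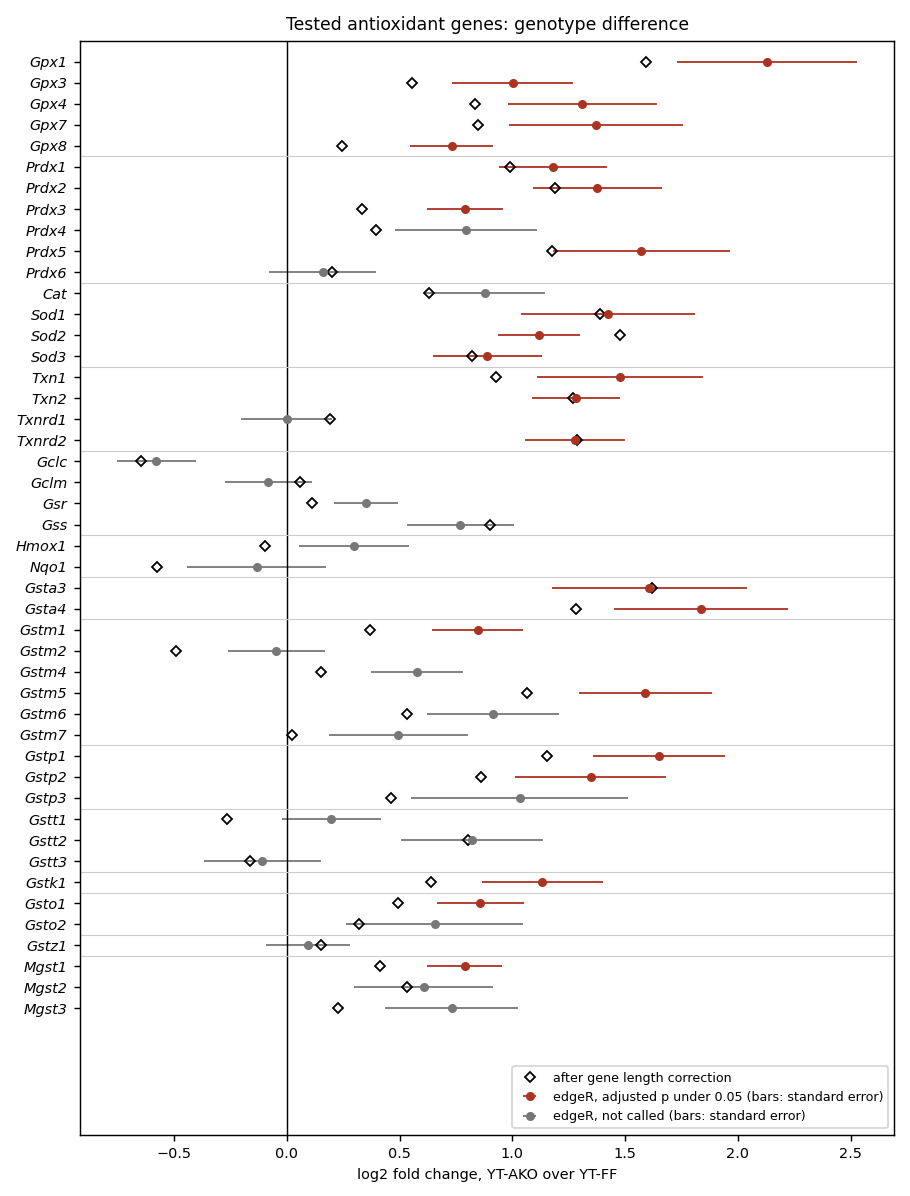
Log2 fold change of YT-AKO over YT-FF (horizontal axis) for the 46 tested genes, grouped by role; filled points with standard error bars are the edgeR values, red where the adjusted p was under 0.05, and open diamonds are the values after gene length correction. Red points run from 0.73 for *Gpx8* to 2.13 for *Gpx1*, *Gclc* is the lowest point at -0.58, and the diamonds of most genes lie to the left, apart from genes such as *Sod2*, *Gss* and *Txnrd1*.

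The order of levels between genes was read in TPM. *Gpx3* was the most abundant transcript over the 6 libraries, at 1839.5 ± 311 TPM in YT-FF and 2232 ± 271 TPM in the other group (n = 3 libraries each, ± SD). *Gpx1* followed at 996 ± 134 and 2526 ± 742 TPM, then *Gpx4* at 1104 ± 129 and 1625 ± 289, *Cat* at 831 ± 132 and 1019 ± 461, and *Mgst1* at 865 ± 29.0 and 958 ± 252. In YT-FF, *Gpx3* stood above *Gpx1* and *Gpx4*, whose ranges overlapped, and in the libraries labelled YT-AKO the ranges of *Gpx1* and *Gpx3* overlapped. The TPM ratio of *Gpx1* to *Gpx3* was 0.391, 0.573 and 0.715 in YT-FF and 1.02, 1.49 and 0.891 in the libraries labelled YT-AKO, and that of *Cat* to *Gpx1* was 0.855, 0.762 and 0.888 and then 0.615, 0.146 and 0.605 (exact permutation, two-sided, p = 0.1 both times, the smallest possible). The pairs *Gstp1* to *Gstz1* and *Gss* to *Gclc* gave the same p = 0.1 by exact permutation, at log2 changes of 1.49 and 1.36. The groups overlapped for *Txn2* to *Txn1* (log2 change -0.10, exact permutation p = 0.9), *Sod2* to *Sod1* (-0.16, p = 1) and *Gpx4* to *Gpx3* (0.26, p = 0.5). All 9 pairs were chosen after the values were seen, and the Benjamini-Hochberg value over the 9 was 0.15 for each of the 6 exact tests with p = 0.1. TPM shifted the whole comparison: the median log2 ratio of mean TPM was -0.661 over all tested genes and 0.183 over the 46 members. Of the 46 members, 31 had a higher mean TPM in the libraries labelled YT-AKO, against 20.7% of all tested genes. All 24 called genes were among them, but they were picked as higher in these same counts, so this adds no support. The groups were free of overlap on this scale for only 15 of the 24. The share of all tested genes without overlap in TPM was not counted, so these 15 have no background beside them.

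**Figure D4:**
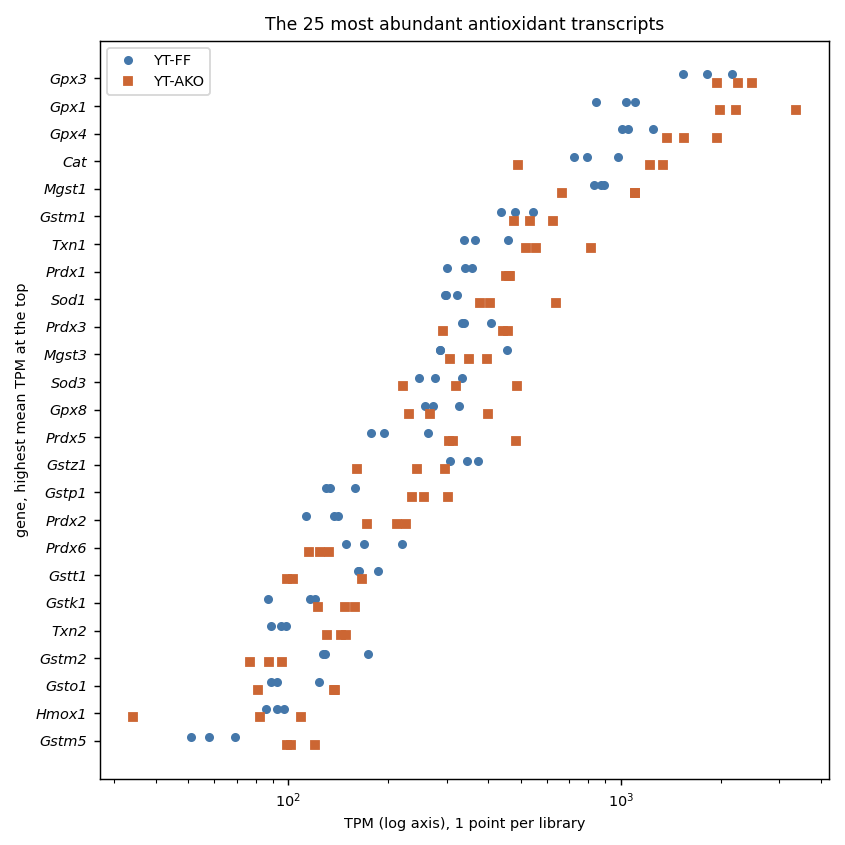
TPM (horizontal log axis) of the 25 antioxidant genes with the highest mean over 6 libraries, with 1 circle per YT-FF library and 1 square per library labelled YT-AKO. *Gpx3*, *Gpx1* and *Gpx4* are at the top, the squares of *Gpx1* and *Gstp1* lie clear of the circles, and those of *Gstz1* and *Gstm2* lie to the left of theirs on this scale.

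The median exon length was 1768.5 bases over the 24 called genes and 2481 over the 22 tested genes that were not called.

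Genes around this set were counted in 8 lists of related functions. Over the lists, 35 of 106 tested genes were higher and 4 lower by edgeR, beside 12.6% and 9.01% of all tested genes, the shares against which each list is read. Without YT-AKO 2 the counts were 45 and 5, and the shares of all tested genes were 16.9% and 14%. In the thioredoxin and glutaredoxin list, 9 of 19 were higher and 2 lower. They included the methionine sulfoxide reductases *Msrb1*, a selenoprotein (log2 fold change 1.80, standard error 0.24, edgeR, Benjamini-Hochberg adjusted p = 0.0166), and *Msra* (log2 fold change 1.28, standard error 0.17, edgeR, Benjamini-Hochberg adjusted p = 0.0166), and sulfiredoxin, *Srxn1*, which reactivates peroxiredoxins (log2 fold change 1.18, standard error 0.15, edgeR, Benjamini-Hochberg adjusted p = 0.0166). The 2 lower genes were *Msrb3* at a log2 fold change of -1.04 and *Sesn3* at -0.99. *Ccs*, the copper chaperone of *Sod1*, was higher by 1.72, and *Glrx5*, a mitochondrial iron-sulfur glutaredoxin, by 1.98 on the log2 scale.

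In the list of glutathione supply and transport, 5 of 20 were higher and 1 lower. *Slc25a39*, which carries glutathione into mitochondria, went from 111, 117 and 136 CPM in YT-FF to 354, 471 and 382 CPM in the libraries labelled YT-AKO (log2 fold change 1.73, standard error 0.19, edgeR, Benjamini-Hochberg adjusted p = 0.0122). Its relative *Slc25a40* went the other way, from 16.4, 17.2 and 16.7 CPM to 9.42, 10.4 and 9.28 CPM (log2 fold change -0.79, standard error 0.17, edgeR, Benjamini-Hochberg adjusted p = 0.0245). The cystine transporter subunit *Slc7a11* was not called (log2 fold change -0.88, standard error 0.27, edgeR, Benjamini-Hochberg adjusted p = 0.0525), while its partner *Slc3a2* was higher by 0.72 on the log2 scale. Of other glutathione users, 7 of 12 were higher and 0 lower by edgeR (2 lower at an unadjusted p under 0.05, 1 by DESeq2), among them *Hagh* and *Glo1*, the pair that removes methylglyoxal, at 1.04 and 0.87. Of NADPH-supplying genes, 4 of 15 were higher and 0 lower (0 also at an unadjusted p under 0.05 and by DESeq2): *Pgls*, *Pgd* and *Taldo1* of the pentose phosphate pathway at 1.62, 0.97 and 1.53, and *Aldh1l1* at 1.04, while *G6pdx*, the entry enzyme, was not called (log2 fold change -0.06, standard error 0.27, edgeR, Benjamini-Hochberg adjusted p = 0.875).

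Of other quinone, heme and iron genes, 8 of 15 were higher and 0 lower (0 also at an unadjusted p under 0.05 and by DESeq2), among them *Cbr3* at 1.96 and *Akr1b3* at 1.65, with the ferritin subunits *Fth1* and *Ftl1* at 1.53 and 1.48. Of selenium-related genes, 2 of 8 were higher and 0 lower (0 also at an unadjusted p under 0.05 and by DESeq2). These were *Sephs2*, which makes the selenium donor for selenoproteins, at 1.71, and *Selenbp1*, a selenium-binding protein outside selenoprotein synthesis, at 0.88. In the NRF2 list, edgeR called 0 of 7 genes in either direction, with 0 higher and 1 lower at an unadjusted p under 0.05 and with DESeq2 calling 0 higher and 1 lower. *Nfe2l2*, which encodes NRF2, had 91.1, 94.6 and 86.5 CPM and 96.0, 66.6 and 109 CPM (log2 fold change -0.00, standard error 0.20, edgeR, Benjamini-Hochberg adjusted p = 0.987), and *Bach1*, a repressor at the same elements, had 46.0, 55.2 and 42.1 CPM and 38.9, 22.7 and 28.2 CPM (log2 fold change -0.67, standard error 0.23, edgeR, Benjamini-Hochberg adjusted p = 0.0651). Of superoxide and peroxide sources, 0 of 10 were higher (2 at an unadjusted p under 0.05, 1 by DESeq2) and 1 was lower, *Cybb* of the phagocyte oxidase (log2 fold change -0.80, standard error 0.18, edgeR, Benjamini-Hochberg adjusted p = 0.0254).

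Markers of several cell types moved with the genotype, and their part in the antioxidant values was not tested. Over all tested genes 12.6% were called higher and 9.01% lower, and without YT-AKO 2 16.9% and 14%. A list with 1 of 8 markers called lies near these shares. For mature adipocytes, 5 of 11 markers were higher, and their summed level ran from 27160 to 35580 CPM in YT-FF and from 55600 to 103500 CPM in the libraries labelled YT-AKO, highest in YT-AKO 2. Much of that sum is *Car3*, *Cfd* and *Fabp4*. *Car3* had 9048, 9568 and 11748 CPM in YT-FF and 15364, 19273 and 20098 CPM in the libraries labelled YT-AKO. *Cfd* had 5370.3, 5902 and 5341 CPM and 18705, 48819 and 19297 CPM, and *Fabp4* 4344, 4072 and 7199 and 9159, 20229 and 10204 CPM. *Lep*, *Plin1*, *Cidec* and *Pparg* were not called (log2 fold changes -0.13, 0.36, 0.40 and 0.29), and with library totals alone 1 of the 11 was called. *Adipoq*, whose promoter drives Cre, was not called (log2 fold change 0.43, standard error 0.22, edgeR, Benjamini-Hochberg adjusted p = 0.176). Beige and brown markers ran from 268.4 to 368.3 CPM and from 1925 to 3798 CPM, again highest in YT-AKO 2, with 8 of 10 higher, among them *Ucp1* (log2 fold change 5.27, standard error 0.51, edgeR, Benjamini-Hochberg adjusted p = 0.00782). For macrophages, 3 of 10 were higher (*C1qa*, *C1qb* and *Fcgr1*) and the sums ran from 1218 to 1420 and from 1842 to 2543 CPM. *Lyz2*, the largest part of these sums, and *Cd14* were not called. *Adgre1*, *Cd68*, *Csf1r*, *Mrc1* and *Itgam* were not called either, and their groups overlapped. B cell markers were lower for 5 of 8 (8 without YT-AKO 2), from 1183 to 1408 and from 692.1 to 1028 CPM. T cell markers had 1 of 8 lower, fibroblast and progenitor markers 2 of 9 higher and 1 lower (6 and 1 without YT-AKO 2), endothelial markers 1 of 8 lower, and Schwann cell markers 0 of 7 called by edgeR or DESeq2, also at an unadjusted p under 0.05, but 2 lower by edgeR without YT-AKO 2, with library totals or with length correction. Skeletal muscle markers (1 of 8 higher) reached 3350 CPM in YT-AKO 1, beside 122 to 456.5 CPM in YT-FF, and erythroid markers (0 of 5 called by edgeR or DESeq2, or at an unadjusted p under 0.05) ran from 249.8 to 917.6 CPM and from 598.1 to 1587 CPM, highest in YT-AKO 2. Epithelial markers summed to at most 5.81 CPM in any library, and 1 of the 7 was at 0 in all.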

How the data were processed

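The authors aligned paired-end reads of 6 scWAT libraries to mm10 with HISAT2 and counted fragments on GENCODE vM25 exons with featureCounts 2.0.1, without strand and without those of multiple alignment or of overlapping genes. The deposited values are raw counts per gene.

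Here, counts were tested in R 4.3.3 with edgeR 4.0.16 (TMM, filterByExpr with minimum count 10 and total 15, quasi-likelihood test, Benjamini-Hochberg adjustment), called at an adjusted p under 0.05. The biological coefficient of variation was 0.288. CPM used the TMM factors, and TPM summed exon lengths. A count of 3, about 0.128 to 0.177 CPM per library, was taken as the floor and covers counting error only. The length correction was a spline (6 degrees of freedom) fitted per library. Alternatives were DESeq2 1.42.0, other scalings and filters, the replicate number as a block, and each library left out. The length correction without YT-AKO 2 was added after the data were seen. Uniqueness was read as shared 50-base words of the GENCODE vM21 transcripts, an older release than the vM25 of the counts on the same build. Every called gene and the most abundant gene of each role are described. Tests were checked on simulated counts, where most changes of 1 log2 unit were missed. Only 200 genes were changed there, far fewer than were called in these data, so that share does not carry over. A gene not called may still differ. The genes and lists were chosen with earlier results of these data known, and *Ero1a* and *Ero1b* were not matched.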

Additional observations from a re-analysis of the deposited data

How the results depend on the processing

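None of the 24 calls changed direction under any of the 16 alternatives. Members called higher numbered 15 with library totals alone, 12 with length correction, 20 with length correction without YT-AKO 2 (and 1 lower), and 0 to 26 with each library left out. Over all tested genes, 6.77%, 8.31%, 13.3% and 0 to 16.9% were called higher under the same settings. The shares called lower were 16.8%, 5.33%, 10.2% and 0 to 14%. Members called lower numbered 1 (*Gclc*) with DESeq2, DESeq2 size factors, upper-quartile scaling, library totals, a minimum of 10 counts in every library and length correction, and 0 to 1 with a library left out. The median log2 fold change was 0.53 with library totals and 0.53 with length correction, 0.50 with length correction without YT-AKO 2, and 0.76 to 1.01 with a library left out. Of the other pathway genes, 0 to 45 were higher and 0 to 5 lower with a library left out, and 8 were lower with DESeq2 and with library totals. *Wwtr1* was 0.59 with library totals and 0.81 to 1.03 with a library left out, and *Yap1* -1.08 to -0.90. Without YT-FF 1 or 2 edgeR called 0 genes higher and 0 or 2 lower among all genes, so these settings called almost nothing in any gene set.

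With the replicate number as a replicate block, 0 members were called (smallest adjusted p 0.0584, 30 at an unadjusted p under 0.05) beside 24 genes higher and 9 lower over all genes. *Yap1* was then -0.98 and *Wwtr1* 0.89, and 0 other pathway genes were called higher and 0 lower. With the replicate block and length correction together 0 members were called, the median was 0.51, 2 other pathway genes were called higher and 0 lower, *Yap1* was -0.66 and *Wwtr1* 0.93. The numbers were not taken to pair the mice: deviations from the group means correlated at 0.139, -0.134 and -0.0911 for numbers 1, 2 and 3, and YT-FF 2 and 3 correlated better with another number.

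Values that changed sign were all of genes not called. With library totals *Gstt1* was -0.13, *Gstz1* -0.22 and *Prdx6* -0.18. With length correction *Gclm* was 0.057, *Gstt1* -0.26, *Hmox1* -0.098 and *Txnrd1* 0.19, and with the replicate block added 0.056, -0.29, -0.18 and 0.17. With length correction without YT-AKO 2, *Gclm* was 0.16, *Gstm7* -0.079, *Gstp3* -0.039, *Gstt1* -0.18, *Prdx6* -0.0078 and *Txnrd1* 0.32. With a library left out, *Gclm* ran from -0.20 to 0.060, *Gstm2* from -0.19 to 0.17, *Gstt3* from -0.29 to 0.067, *Prdx6* from -0.025 to 0.38 and *Txnrd1* from -0.19 to 0.17. The cause of these sign changes was not tested.

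With 3 mice a group, an exact test cannot go below p = 0.1, and a missed call does not show equal levels. *Gstp2*, *Gstm6*, *Gstm7*, *Gsto2* and *Nqo1*, at under 10 CPM, rest on few counts. Length, library scaling and the cell makeup of the depot all move with the genotype and cannot be told apart from it here.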
